A study of Mus musculus with 8 samples.

Results

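The contactins and the contactin-associated proteins are neuronal cell-surface molecules, and 10 of their genes were followed here in nuclei of the embryonic mouse cortex: Cntn1, Cntn2, Cntn3, Cntn4, Cntn5, Cntn6, Cntnap2, Cntnap4, Cntnap5a and Cntnap5b. They were picked by gene symbol from a table of 14166 genes. All 10 passed the filter on low counts in each of the 8 genotype comparisons described. The material was dorsal telencephalon, the part of the embryonic brain that forms the cerebral cortex, taken at E15.5 from C57BL/6J mice. The 4 wildtype and 4 knockout samples differ by label in Pantr2, a gene for a long noncoding RNA, which is homozygously disrupted in the knockout (Pantr2-/-). No treatment and no further allele is named in either group. The labels do not say whether a sample is 1 embryo or a pool, nor which part of the gene was removed, so p-values measure the spread between these samples.

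Transcripts were counted in single nuclei with a droplet method that marks each captured molecule with a unique molecular identifier (UMI). The 67319 nuclei (33781 wildtype and 33538 knockout) gave 20446698 to 34083796 UMIs per sample, and each nucleus holds the deposited number of 1 of 7 clusters. Levels are given in CPM, the usual scaled counts, for which the UMIs of each sample and cluster are brought to the same total. Counts of Pantr2 itself are not analysed here, and the genotypes are those of the labels. Any 2 libraries shared 8 to 30 cell barcodes. The summed level of 4 haemoglobin genes, which are genes of red blood cells, lay between 264 and 669 CPM in the wildtype samples of every cluster, so a few CPM of a gene in a cluster is not read as expression there.

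Clusters 1 to 5 carried recognisable markers in wildtype. Cluster 1 had the highest levels of the upper-layer neuron genes Cux2 (763 CPM), Cux1 (667 CPM) and Pou3f2 (161 CPM). The upper-layer genes Mdga1 (308 CPM) and Lhx2 (236 CPM) were highest in cluster 5 instead. Cluster 2 led in the deep-layer genes Ldb2 (1510 CPM), Bcl11b (960 CPM) and Fezf2 (136 CPM) but also in the upper-layer gene Rorb (714 CPM). Cluster 3 led in Hs3st4 (4022 CPM), Tle4 (3162 CPM) and Foxp2 (1079 CPM), the pattern of corticothalamic neurons. Cluster 4 led in the apical progenitor genes Vim (347 CPM), Pax6 (62.1 CPM) and Hes5 (58.6 CPM), and cluster 5 in the intermediate progenitor genes Neurog2 (102.8 CPM), Btg2 (99.3 CPM) and Eomes (85.5 CPM). Of the thalamic genes, Rora (877 CPM) and Tcf7l2 (406 CPM) were also highest in cluster 4, and Lhx9 (43.9 CPM) in cluster 7. Clusters 6 and 7 were not named, since fewer than 3 markers of any class had their highest level there at 10 CPM or more.

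Contactins are immunoglobulin-type adhesion molecules held in the membrane by a lipid anchor, with no cytoplasmic part of their own. Contactin-associated proteins, the Caspr proteins, are relatives of the neurexins that cross the membrane and bind cytoskeletal adaptors. The families work together on axons: Cntn2 and Cntnap2 form the complex that gathers potassium channels beside the node of Ranvier, while Cntn1 pairs with Cntnap1 at the paranode. In the embryo, before there is myelin, contactins act in axon outgrowth, bundling and choice of partner, and bind receptors such as the receptor phosphatases Ptprz1 and Ptprg, L1-type adhesion molecules and the amyloid precursor family.

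Most of these genes are very long. On the GENCODE M21 annotation of GRCm38, Cntnap2 occupies chr6:45059357-47304213 on the plus strand (2244857 bases), Cntn5 chr9:9660891-10904775 on the minus strand and Cntn4 chr6:105677660-106699310 on the plus strand. Cntn2, at chr1:132509427-132543256 on the minus strand, is the shortest with 33830 bases. Cntn3 (chr6:102162655-102573101, minus strand) and Cntn6 (chr6:104492790-104863406, plus strand) lie on the same chromosome as Cntn4. Cntnap5a (chr1:115684756-116587323) and Cntnap5b (chr1:99772765-100485942) are 2 genes of the plus strand of chromosome 1. Their transcripts matched at 88.05% identity over 4076 bases, under the 95% taken here as a near-identical copy. Transcripts of Cntn2, Cntnap2 and Cntn3 held stretches that matched 71, 20 and 4 other genes at over 95% over at least 100 bases. Those of Cntn5 and Cntnap4 matched 1 other gene each, Gm32710 and Gm45904. Cntnap4 (chr8:112570043-112882717) overlaps the antisense gene Gm45904, which is counted in the same table, and whether the counting used strand is not given in the sources used here.

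The bases before the listed transcription starts differed between the genes, and also between starts of the same gene. RefSeq start windows on GRCm38.p6 were found for 8 of the 10 genes, and 4 of them are shown because their genes carry the main results below and because they differ widely in CG content. Each is the 250 bases before a listed start, on the strand of the gene, and capitals mark CG dinucleotides, the sites of DNA methylation.
Cntn5, chr9:10904776-10905025: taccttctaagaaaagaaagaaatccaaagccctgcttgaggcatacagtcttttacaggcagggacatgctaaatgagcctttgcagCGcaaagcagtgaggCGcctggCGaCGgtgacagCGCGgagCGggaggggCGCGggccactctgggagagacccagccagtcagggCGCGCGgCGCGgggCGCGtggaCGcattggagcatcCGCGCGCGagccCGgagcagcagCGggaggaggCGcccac
Cntnap2, chr6:45059811-45060060: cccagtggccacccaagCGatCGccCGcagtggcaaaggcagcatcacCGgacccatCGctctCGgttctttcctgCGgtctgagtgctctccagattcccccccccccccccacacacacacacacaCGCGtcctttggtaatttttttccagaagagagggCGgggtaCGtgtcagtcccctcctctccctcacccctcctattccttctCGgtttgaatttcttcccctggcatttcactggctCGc
Cntnap5b, chr1:99772151-99772400: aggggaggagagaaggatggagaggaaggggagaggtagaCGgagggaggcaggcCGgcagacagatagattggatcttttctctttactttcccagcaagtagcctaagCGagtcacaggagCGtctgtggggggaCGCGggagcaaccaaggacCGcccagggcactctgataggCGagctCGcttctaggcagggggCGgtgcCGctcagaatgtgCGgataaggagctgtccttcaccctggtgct
Cntn3, chr6:102464668-102464917: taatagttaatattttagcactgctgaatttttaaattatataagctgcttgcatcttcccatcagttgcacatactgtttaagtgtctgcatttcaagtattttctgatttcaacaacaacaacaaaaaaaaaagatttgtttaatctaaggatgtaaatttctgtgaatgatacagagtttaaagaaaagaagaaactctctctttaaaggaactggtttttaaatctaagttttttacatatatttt
The Cntn5 window held 24 CG dinucleotides, the Cntnap2 window 13 and the Cntnap5b window 12, against a median of 6 over 32851 start windows. The Cntnap2 and Cntn3 windows lie inside the annotated genes, just after the annotated start of Cntnap2 and far from that of Cntn3. The Cntn3 window held 0 and had a G+C content of 26.4%, under the lower quartile of 45.2% over the same windows. The other listed window of Cntnap2 held 3 CG dinucleotides and that of Cntn5 held 26, and the Cntn4 windows held 2 and 12. Both strands of the 13 windows of these genes were searched for the POU octamer ATGCAAAT, the T-box half-site AGGTGT and the E-box CAGATG. None held a match, where 1.60%, 11.8% and 14.4% of all start windows did. This says only that these letters are not in these windows.

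In wildtype cortex the levels of these genes differed between clusters, and 6 of the 10 had their highest mean in cluster 6. For Cntn3, 1 of these 6, the cluster 6 values overlapped those of cluster 2. The clusters were built from the same nuclei, so these levels are given as a description without a test, and neighbours in an order are set apart only where the 4 wildtype values did not overlap. Among the contactins, Cntn5, a synaptic adhesion molecule of sensory circuits, reached 1900, 1577, 1410 and 1389 CPM in cluster 6 of wildtype replicates 1 to 4. Its level there was 1.88 times that in cluster 3 (837 ± 30.2 CPM, SD, n = 4) and 42.0 times that in cluster 1, the lowest (37.3 ± 11.7 CPM). The clusters fell in the order 6, 3, 7, 2, 5, 4 and 1, and the values of clusters 2 and 5 overlapped.

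Cntn4, which guides axons of the olfactory and optic systems, was the most restricted. It stood at 254, 183, 149 and 117 CPM in cluster 6 and between 2.60 and 26.7 CPM in the wildtype samples of all other clusters. Cntn6, an activator of Notch signalling in glial precursors, stood at 243, 169, 199 and 144 CPM in cluster 6. Its next level was in the apical progenitor-like cluster 4, at 57.3, 51.3, 41.3 and 40.8 CPM, apart from cluster 3 below it (15.05 to 22.99 CPM). The 4 lowest clusters for Cntn6 (5, 7, 2 and 1) had means from 7.49 to 11.1 CPM and overlapped.

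Cntn3 was the flattest of the contactins apart from its low levels in clusters 1 and 5. It stood at 139, 77.7, 94.8 and 123 CPM in cluster 6 and at 85.5, 93.3, 70.3 and 100.001 CPM in cluster 2, which overlapped. Clusters 4, 3 and 7 followed at means of 63.2, 62.2 and 57.1 CPM. By the share of nuclei with a UMI after thinning to 1400 UMIs, cluster 4 (7.72%) came first for Cntn3, then cluster 2 (7.48%) and cluster 6 (7.27%), which was the 1 change of leading cluster among 60 alternatives.

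Cntn1 and Cntn2, the contactins of long axons, led in different clusters, and both were low in cluster 4. Cntn1 was high in clusters 3, 2 and 6, at 390 ± 28.4, 349 ± 11.4 and 346 ± 53.9 CPM (SD, n = 4), and had means of 26.1 to 35.6 CPM in clusters 1, 4 and 5. Cntn2, known as TAG-1 and carried by growing axons, was highest in the upper-layer-like cluster 1 at 176, 179, 187 and 177 CPM. Cluster 7 followed at 133 ± 22.2 CPM, and clusters 6, 2 and 5 lay close together at means of 47.9 to 49.3 CPM. The progenitor-like cluster 4 had the lowest Cntn2 level, 16.2 ± 5.26 CPM.

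Among the contactin-associated proteins, Cntnap2 was highest in cluster 6 at 1007, 879, 813 and 756 CPM, followed by cluster 7 at 514 ± 48.2 CPM. Clusters 2 and 3 overlapped at 234 ± 40.9 and 203 ± 17.3 CPM, and clusters 5, 4 and 1 had means of 83.5 to 99.3 CPM. Cntnap5a followed the same order at its upper end, with 527, 434, 447 and 428 CPM in cluster 6 and 131 ± 33.8 CPM in cluster 7. Its close relative Cntnap5b was placed elsewhere: it stood at 748, 832, 941 and 787 CPM in the corticothalamic-like cluster 3, 4.04 times the level of cluster 7 and 43.5 times that of cluster 1. Cntnap4, known for its role in interneurons, was also highest in cluster 3 at 320, 291, 326 and 306 CPM. Cluster 6 was next for Cntnap4 at 261 ± 17.2 CPM, and cluster 1 was last at 30.4 ± 6.02 CPM.

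**Figure D1:**
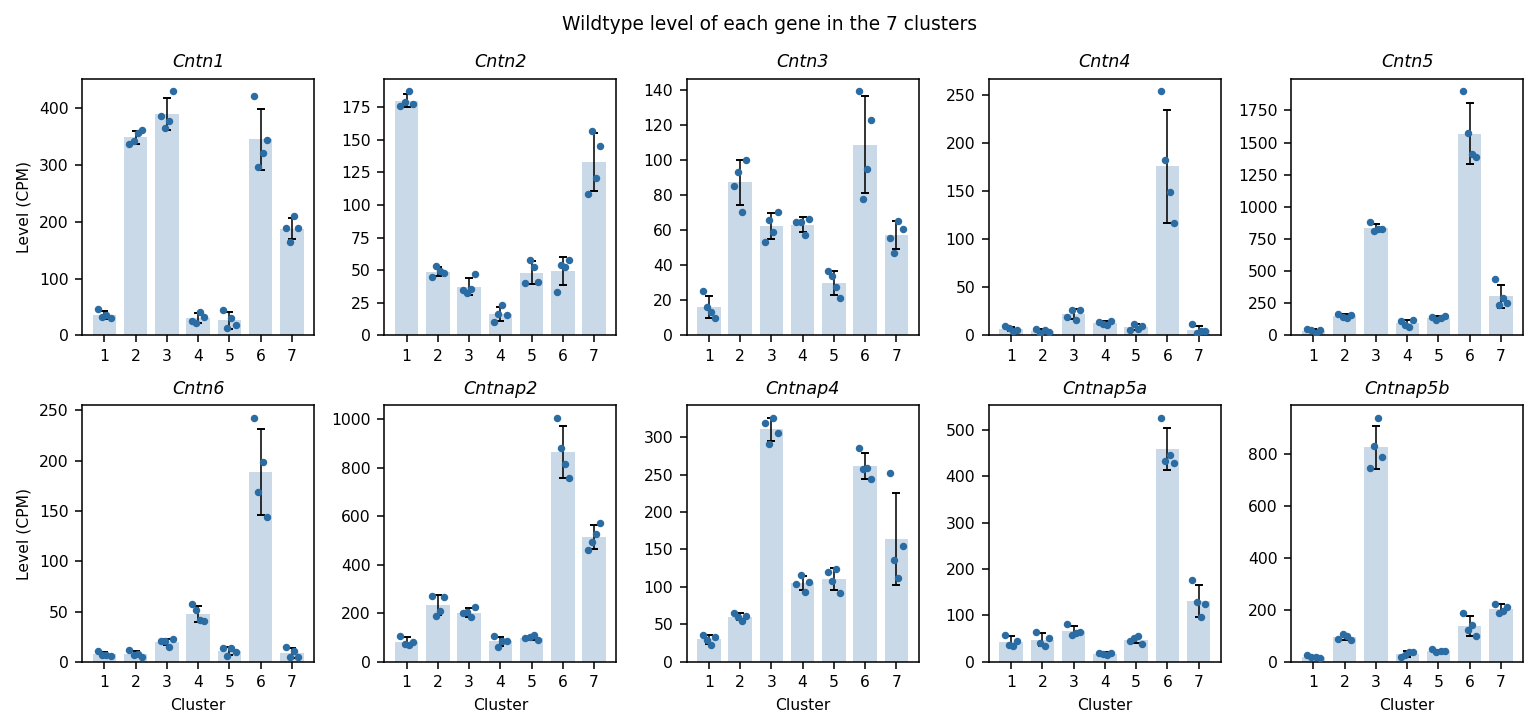
Wildtype level of each of the 10 genes in the 7 clusters, on a linear axis in CPM (UMIs scaled to the same total in each sample and cluster) that differs between panels. Bars are means of 4 samples, error bars are SD and points are samples. The mean is highest in cluster 6 for 6 genes, with Cntn3 values there overlapping those of cluster 2. It is highest in cluster 3 for Cntn1, Cntnap4 and Cntnap5b, and in cluster 1 for Cntn2.

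The family as a sum took 4159 ± 576 CPM (SD, n = 4) of the transcripts of cluster 6 and 2775 ± 57.9 CPM of cluster 3. It took 460 ± 57.2 CPM of cluster 1 and 501 ± 38.2 CPM of cluster 4. Cluster 6 held 10.5% of the wildtype nuclei but 65.9% of the Cntn4 UMIs, 57.3% of the Cntn6 UMIs, 51.9% of the Cntnap5a UMIs and 40.7% of the Cntn5 UMIs. It held 7.59% of the Cntn2 UMIs.

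Levels of different genes were also set side by side per length, and the order depended on which length was taken. Over all wildtype nuclei and per 100 kb of gene body, Cntn2 stood first at 215 CPM, followed by Cntn1 at 71.7 and Cntnap4 at 47.2 CPM. Per kb of the longest coding transcript, Cntn5 stood first at 102.7 CPM, followed by Cntnap5b at 57.0 and Cntn1 at 36.8 CPM. Cntn4 was last on both scales, at 2.88 CPM per 100 kb of gene body and 5.59 CPM per kb of transcript. Each UMI marks a captured molecule, and whether reads from introns were counted is not given in the sources used here. Neither scale is therefore preferred, and neither order is read as a ranking of expression.

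Within the family, the 7 cluster means of Cntn4 and Cntn6 were the most alike, with a Pearson correlation of 0.93 of log2(CPM + 1). Cntnap2 and Cntnap5a followed at 0.91, as did Cntn5 and Cntnap4 at 0.91. Cntnap5a and Cntnap5b reached 0.46, and Cntn2 had negative values with 6 of the other 9 genes. These are descriptions over 7 means that share samples and depth. Among 10154 genes with at least 10 CPM in a cluster, the 3 most like Cntn1 were Ptprr, Grin2b and Pfkp (0.99 each), and those most like Cntn2 were Nuak1, Ube2o and Tbc1d16 (0.95 to 0.96). Cd46, Ncam2 and Prkcb were most like Cntn3 (0.90 to 0.96), Cobl, Myrip and Mlh3 most like Cntn4 (0.97 each), and Unc13c, A230006K03Rik and Csf2ra most like Cntn5 (0.97 to 0.98). Prkg2, Hace1 and Arhgap24 were most like Cntn6 (0.95 to 0.97), and Filip1, Zfp956 and Prr5 most like Cntnap2 (0.98 each). For Cntnap4 they were Fxyd6, its own antisense neighbour Gm45904 and Dis3l (0.95 to 0.97), for Cntnap5a Slc22a5, Micu2 and Sphkap (0.98 to 0.99), and for Cntnap5b Skap1, Ptk2b and Dusp15 (0.98 each).

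In cluster 6 the 2 most restricted contactins also met in the same nuclei. A Cntn4 UMI was present in 14.4%, 8.47%, 9.44% and 8.36% of the cluster 6 nuclei of wildtype replicates 1 to 4. Of these nuclei, 69.9%, 67.2%, 74.2% and 71.8% also held a Cntn6 UMI, against 12.0%, 8.56%, 9.13% and 8.48% of the cluster 6 nuclei without a Cntn4 UMI. The shares did not overlap in any sample, and the nuclei with Cntn4 had median totals of 3101 to 3473 UMIs against 2762 to 3071 in those without. In clusters 1 and 2, 1.38% and 1.36% of wildtype nuclei held a Cntn4 UMI.

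The effect of the knockout was first measured over all nuclei, with UMIs summed per sample. Cntn6 and Cntnap5a were called lower and none of the 10 was called higher. Thus 2 of 10 genes passed the threshold of an adjusted p of 0.05, where 5.26% of the 13927 genes tested did. The median log2 fold change of the 10 genes was -0.38 and that of all genes was 0.00. Cntn6 stood at 48.9, 31.8, 39.5 and 28.3 CPM in wildtype and at 26.7, 11.6, 13.3 and 7.97 CPM in knockout replicates 1 to 4, with no overlap. Its log2 fold change was -1.32 ± 0.30 (SE; adjusted p = 0.0359, edgeR quasi-likelihood test). The call was lost without any single wildtype sample and without knockout replicate 2 or 3, with adjusted p up to 0.124 by edgeR.

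Cntnap5a stood at 115, 88.9, 102 and 92.0 CPM in wildtype and at 83.1, 56.7, 54.2 and 58.3 CPM in knockout, a log2 fold change of -0.65 ± 0.13 (SE; adjusted p = 0.0174, edgeR). Every knockout sample was below every wildtype sample, and the call was lost without knockout replicate 2 or 3 (adjusted p up to 0.0682, edgeR). With the replicate number as a block, 3 more genes were called by edgeR, where 9.65% of all genes were: Cntn2, with a log2 fold change of 0.42 (adjusted p = 0.00310), Cntn5 with -0.44 (adjusted p = 0.0299) and Cntnap2 with -0.49 (adjusted p = 0.0221).

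The share of nuclei in cluster 6 moved with these sums, since that cluster held 10.5% ± 1.54 of wildtype and 5.85% ± 1.61 of knockout nuclei (SD, n = 4). The ranges, 9.37% to 12.7% and 4.31% to 8.11%, did not overlap. In sums over all nuclei, fewer nuclei of a type and less RNA per nucleus cannot be told apart. In sums that left out the nuclei of cluster 6, Cntnap5a kept a log2 fold change of -0.42 (adjusted p = 0.0485, edgeR) and Cntn6 had -0.72 (adjusted p = 0.106, edgeR). Cntn4 stood at -0.54 with cluster 6 and at 0.39 without it, and neither value passed (adjusted p = 0.508 and 0.507, edgeR). Markers of other cells also moved over all nuclei: the sum of 5 oligodendrocyte precursor genes was 5.06 to 7.58 CPM in wildtype and 1.93 to 2.57 CPM in knockout, with Olig1 and Olig2 lower. Of 11 interneuron genes Dlx2, Dlx5 and Lhx6 were lower (edgeR), with sums of 119 to 155 CPM and 62.8 to 143 CPM, and the part of these cells in the results was not tested.

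Replicate 1 was the highest of its group in 46 of 80 levels in wildtype and in 50 of 80 in knockout, over the 10 genes in all nuclei and in each cluster. Without knockout replicate 1, edgeR called 4 of the 10 genes over all nuclei in place of 2, Cntn5 and Cntnap2 being added, where 4.41% of 13971 genes were.

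**Figure D2:**
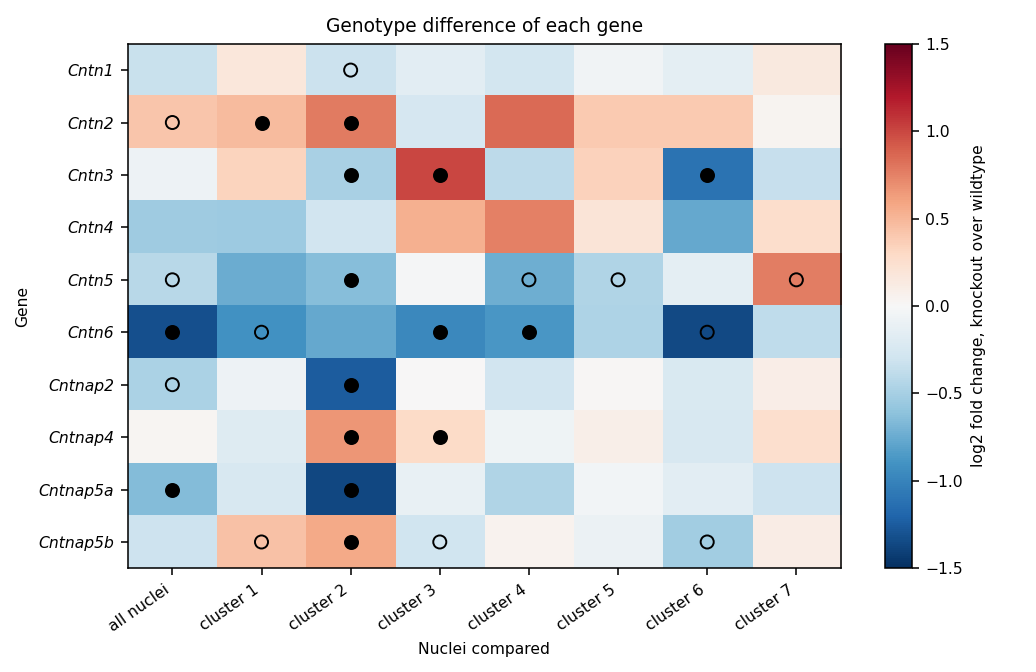
Log2 fold change (knockout over wildtype) of each gene over all nuclei and in each cluster, from blue (lower in knockout) to red (higher); columns share samples. Filled circles mark the 15 differences called by edgeR without a block, open circles the 12 called with the replicate block but not without it; 7 of the 15 lie in cluster 2.

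Cluster 2 had more of the 10 genes called than any other cluster: 7 of them, 3 higher and 4 lower, where 9.11% of 11538 genes were called, 3.92% higher and 5.19% lower. The median absolute log2 fold change of the 10 genes was 0.65 and that of all genes in this cluster 0.14. Cntnap2, whose protein clusters potassium channels and which is linked to language and autism in humans, stood at 271, 190, 209 and 268 CPM in wildtype and at 92.6, 76.1, 92.6 and 135 CPM in knockout. The groups did not overlap, and the log2 fold change was -1.24 ± 0.16 (SE; adjusted p = 0.000268, edgeR). Cntnap5a moved the same way, from 65.1, 41.4, 34.5 and 51.2 CPM in wildtype to 21.1, 21.0, 12.9 and 20.3 CPM in knockout. Its log2 fold change was -1.36 ± 0.20 (SE; adjusted p = 0.000634, edgeR), the largest of the 10 genes in this cluster.

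The contactins Cntn5 and Cntn3 also fell in cluster 2. Cntn5 stood at 165, 144, 134 and 161 CPM in wildtype and at 97.9, 63.5, 102 and 125 CPM in knockout, with no overlap (log2 fold change -0.64 ± 0.15 SE, adjusted p = 0.0166, edgeR). The Cntn5 call was lost without wildtype replicate 1 (adjusted p = 0.0515, edgeR). Cntn3 stood at 62.3, 61.3, 74.9 and 49.6 CPM in knockout, and the highest of these lay inside the wildtype range of 70.3 to 100.001 CPM. Its log2 fold change was -0.48 ± 0.12 (SE; adjusted p = 0.0258, edgeR). That call held in 2 of the 8 fits that left out 1 sample, those without wildtype replicate 3 or knockout replicate 3, and the adjusted p reached 0.0912 (edgeR).

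Cntn2, Cntnap4 and Cntnap5b rose in the sums of the same cluster, each with every knockout sample above every wildtype sample. Cntn2, the partner of Cntnap2 in the axonal complex, stood at 44.99, 53.4, 49.1 and 48.2 CPM in wildtype and at 84.6, 95, 84.5 and 70.4 CPM in knockout. Its log2 fold change was 0.78 ± 0.10 (SE; adjusted p = 0.000223, edgeR). Cntnap4 went from 65.5, 59.8, 54.5 and 61.5 CPM to 100.045, 112, 93.2 and 75.4 CPM, a log2 fold change of 0.66 ± 0.11 (SE; adjusted p = 0.00174, edgeR). Cntnap5b went from 87.2, 107, 99.5 and 85.7 CPM to 156, 132, 141 and 133 CPM, a log2 fold change of 0.57 ± 0.09 (SE; adjusted p = 0.000854, edgeR).

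The remaining 3 genes did not pass in cluster 2. Cntn1 stood at 337, 342, 356 and 361 CPM in wildtype and at 288, 209, 292 and 330 CPM in knockout, which did not overlap (adjusted p = 0.0909, edgeR). With the replicate block Cntn1 was called, at a log2 fold change of -0.33 (adjusted p = 0.0279, edgeR), where 10.4% of genes were called. Cntn6 was between 4.61 and 11.7 CPM in wildtype and between 3.49 and 7.43 CPM in knockout, and Cntn4 was at or under 6.85 CPM in all 8 samples.

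**Figure D3:**
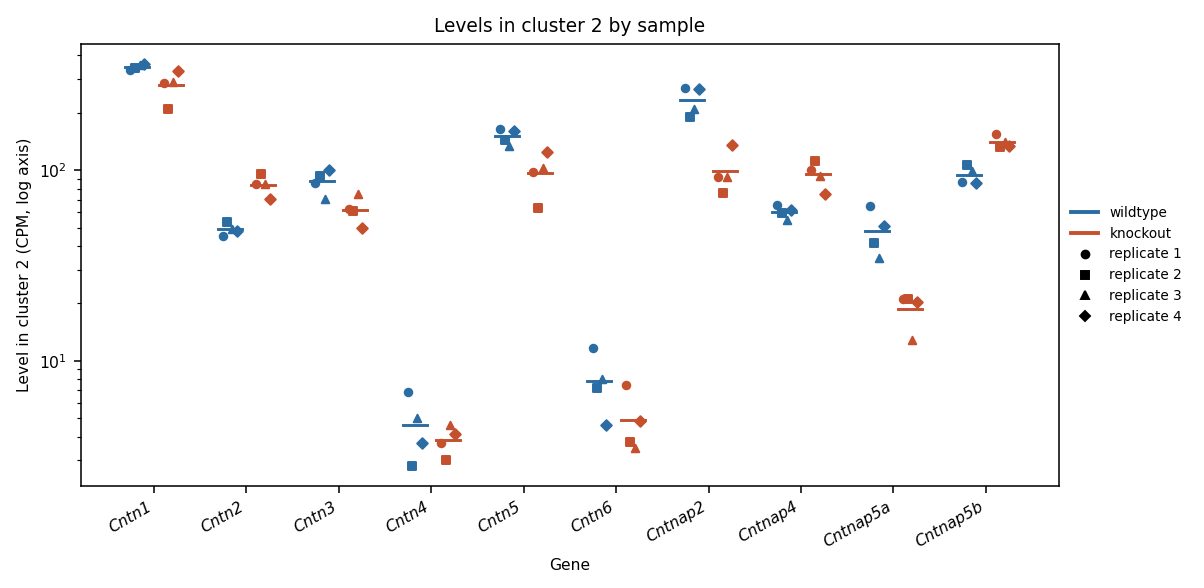
Level of each gene in cluster 2 by sample, in CPM on a log axis, with wildtype in blue, knockout in red, short lines for the means of 4 samples and a symbol for each replicate number. Cntnap2 and Cntnap5a lie lower in every knockout sample, and Cntn2, Cntnap4 and Cntnap5b higher.

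Markers of neuronal class moved with genotype in cluster 2. The summed level of 7 upper-layer genes was 1059 to 1492 CPM in wildtype and 959 to 1086 CPM in knockout, which overlapped, with 5 of the 7 lower and 1, Mdga1, higher (edgeR). That of 9 deep-layer genes was 8160 to 9844 CPM in wildtype and 11238 to 13278 CPM in knockout, with 4 of 9 higher. Interneuron genes were low in both groups, at 81.0 to 99.2 CPM in wildtype and 44.97 to 81.2 CPM in knockout over 11 genes, with Dlx2, Dlx5 and Lhx6 lower (edgeR). The sum of 9 genes of striatal projection neurons was 25.6 to 50.9 CPM in wildtype and 15.03 to 22.3 CPM in knockout, with Isl1 and Ebf1 lower. Of 7 Cajal-Retzius cell genes Reln and Nhlh2 were higher and Cacna2d2 lower, with sums of 34.7 to 44.99 CPM and 43.0 to 69.7 CPM. The progenitor gene Nes and the subplate gene Nxph4 were higher and the thalamic gene Rora lower, with overlapping sums of their lists. No marker gene of these lists was at 0 in all samples, and their part in the results was not tested.

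In the corticothalamic-like cluster 3 the direction of Cntn3 was the opposite of that in cluster 2. Cntn3 stood at 53.5, 66.0, 59.0 and 70.4 CPM in wildtype and at 144, 112, 137 and 101 CPM in knockout. The groups were far apart, with a log2 fold change of 1.00 ± 0.11 (SE; adjusted p = 0.000186, edgeR), and the call held in all 13 alternatives. Altogether 3 of the 10 genes were called in cluster 3, where 3.36% of 11890 genes were, and the median log2 fold change was -0.06 against 0.00 over all genes.

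Cntnap4, already highest in this cluster, rose from 320, 291, 326 and 306 CPM to 362, 406, 373 and 343 CPM (log2 fold change 0.29 ± 0.07 SE, adjusted p = 0.0384, edgeR). The groups did not overlap, but the call was lost without knockout replicate 2 or 3 or any of wildtype replicates 1, 2 and 4 (adjusted p up to 0.116, edgeR). Cntn6 fell from 20.5, 20.6, 15.05 and 22.99 CPM to 14.9, 9.67, 6.32 and 9.70 CPM, with a log2 fold change of -0.97 ± 0.20 (SE; adjusted p = 0.0146, edgeR). Wildtype replicate 3 and knockout replicate 1 nearly met, and the call was lost without wildtype replicate 4 or knockout replicate 2 or 3 (adjusted p up to 0.0559, edgeR). Cntnap5b, whose own wildtype level was highest in this cluster, stood at 638, 555, 734 and 716 CPM in knockout, below each wildtype sample. Its log2 fold change of -0.30 ± 0.09 (SE) did not pass (adjusted p = 0.116, edgeR) but passed with the replicate block (adjusted p = 0.0188, edgeR), with which 5.48% of genes were called. The summed upper-layer and deep-layer markers of cluster 3 overlapped between the groups, at 865 to 957 CPM against 787 to 904 CPM and at 14517 to 15548 CPM against 13903 to 15444 CPM, with Tbr1 higher (edgeR). The sum of 9 striatal genes did not overlap, at 57.1 to 82.9 CPM in wildtype and 34.1 to 52.3 CPM in knockout, with 0 of them called. Of 11 interneuron genes Dlx5 and Dlx6os1 were lower, with sums of 87.7 to 126 CPM and 47.4 to 105 CPM. Of 7 Cajal-Retzius cell genes Reln and Nhlh2 were higher, with sums of 46.7 to 62.1 CPM and 60.7 to 72.0 CPM, and Nes was higher among progenitor genes. Their part in the results was not tested.

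Cluster 6, the richest in the family, had 1 gene called of 10, where 0.779% of 10522 genes were. Cntn3 fell from 139, 77.7, 94.8 and 123 CPM to 75.2, 39.3, 37.9 and 46.4 CPM, a log2 fold change of -1.10 ± 0.22 (SE; adjusted p = 0.0385, edgeR). The groups did not overlap, with the highest knockout sample just under the lowest wildtype sample. The call held in 2 of 8 fits that left out 1 sample, those without wildtype replicate 2 or knockout replicate 1, and the adjusted p reached 0.199 (edgeR). Cluster 6 also had the fewest nuclei per knockout sample, 314 to 623. The sum of 9 deep-layer markers in it was 2302 to 2419 CPM in wildtype and 2710 to 3087 CPM in knockout, with Sox5 higher (edgeR), and that of 3 thalamic markers 217 to 253 CPM and 124 to 184 CPM. Their part in the result was not tested.

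The paired contactins of cluster 6 split the knockout samples. Cntn4 stood at 227, 16.3, 145 and 8.64 CPM in knockout replicates 1 to 4, so that replicates 1 and 3 lay inside the wildtype range of 117 to 254 CPM and replicates 2 and 4 far below it. Cntn6 stood at 147, 36.9, 87.3 and 10.8 CPM in knockout, with the same order and with 1 sample inside the wildtype range. Neither passed (adjusted p = 0.742 for Cntn4 and 0.242 for Cntn6, edgeR). With the replicate block Cntn6 was called, at a log2 fold change of -1.52 (adjusted p = 0.00484, edgeR), where 2.4% of genes were called. It was also called without knockout replicate 1 (adjusted p = 0.0177, edgeR). A Cntn4 UMI was found in 13.8%, 2.73%, 9.005% and 1.91% of the knockout nuclei of this cluster, and both UMIs in 46 of 596, 10 of 623, 20 of 422 and 1 of 314 nuclei. In wildtype both were found in 86 of 856, 45 of 791, 72 of 1028 and 51 of 849 nuclei.

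The abundant genes of cluster 6 overlapped between the groups. Cntn5 stood at 2039, 1165, 1148 and 1258 CPM in knockout, with replicate 1 above each wildtype sample. Cntnap2 stood at 1011, 573, 688 and 638 CPM and Cntnap5a at 504, 323, 406 and 393 CPM, and their adjusted p-values were 0.680 and 0.742 (edgeR). Cntnap5b, at 100.4 to 187 CPM in wildtype and 49.7 to 172 CPM in knockout, was called with the replicate block and in no other alternative (log2 fold change -0.62, adjusted p = 0.0270, edgeR).

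**Figure D4:**
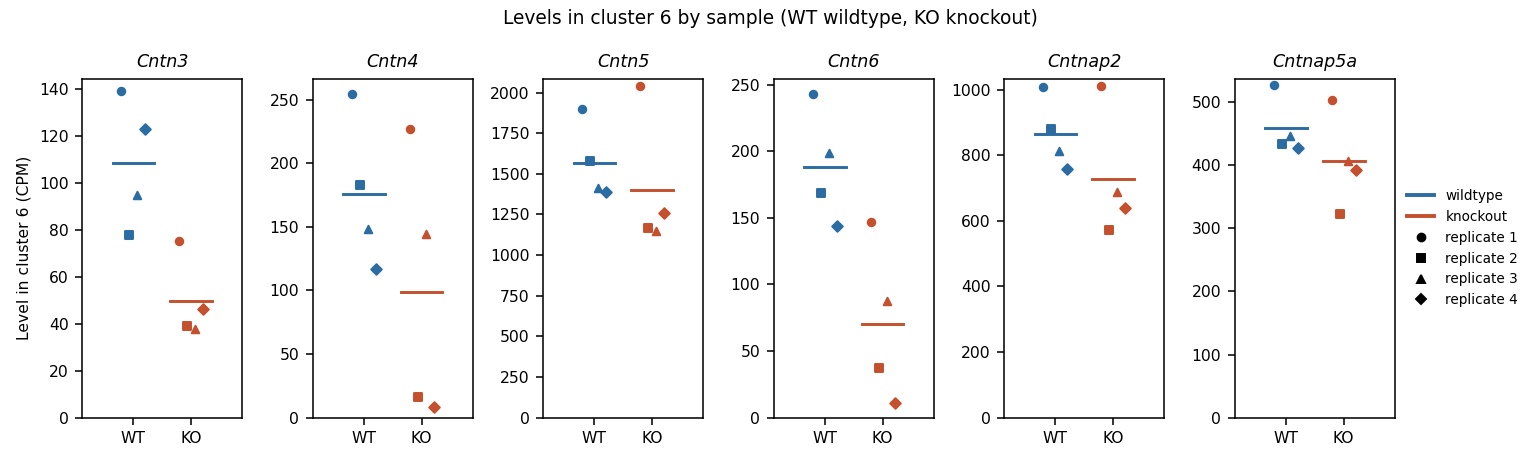
Level of 6 genes in cluster 6 by sample, in CPM on linear axes from 0 that differ between panels, with wildtype (WT) in blue, knockout (KO) in red, lines for means of 4 samples and a symbol for each replicate number. Cntn3 is lower in all knockout samples, and knockout replicates 2 and 4 are close to 0 for Cntn4 and low for Cntn6.

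In the upper-layer-like cluster 1 the 1 gene called of 10 was Cntn2, the leading family gene there, where 4.84% of 11664 genes were called. It stood at 176, 179, 187 and 177 CPM in wildtype and at 208, 270, 265 and 231 CPM in knockout, with no overlap (log2 fold change 0.47 ± 0.08 SE, adjusted p = 0.00370, edgeR), and was called in all 13 alternatives. The summed upper-layer markers of this cluster were 2071 to 2458 CPM in wildtype and 1391 to 1672 CPM in knockout, and the deep-layer markers 2500 to 2981 CPM and 3742 to 5111 CPM. The sum of 11 interneuron genes was 82.5 to 128 CPM and 49.0 to 76.0 CPM, with Dlx2, Gad2, Dlx5 and Dlx6os1 lower (edgeR), and that of 9 striatal genes 40.7 to 67.1 CPM and 17.9 to 30.6 CPM, with Isl1 and Ebf1 lower. The sum of 3 thalamic genes was 236 to 257 CPM and 167 to 202 CPM, with Rora lower and Lhx9 higher, and Nes and Nxph4 were higher as well. The part of these markers in the result was not tested. With the replicate block Cntn6 (log2 fold change -0.90, adjusted p = 0.0242, edgeR) and Cntnap5b (0.43, adjusted p = 0.0321) were called as well, where 6.86% of genes were, at levels of at most 10.98 CPM for Cntn6 and 29.4 CPM for Cntnap5b.

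In the apical progenitor-like cluster 4, Cntn6 fell from 57.3, 51.3, 41.3 and 40.8 CPM to 29.7, 26.3, 25.1 and 20.2 CPM. The groups were apart, with a log2 fold change of -0.88 ± 0.14 (SE; adjusted p = 0.00337, edgeR) that was called in all 13 alternatives. It was the 1 gene called of 10 there, where 4.29% of 11935 genes were. The summed level of 10 apical progenitor genes in the same nuclei was 2455 to 2982 CPM in wildtype and 2093 to 2319 CPM in knockout, with Slc1a3 and Fabp7 lower (edgeR). Other marker sums also did not overlap. That of 11 interneuron genes was 232 to 274 CPM in wildtype and 110 to 224 CPM in knockout with 0 called, and that of 4 pericyte genes 26.5 to 28.2 CPM and 8.92 to 14.4 CPM with Pdgfrb lower. That of 5 oligodendrocyte precursor genes was 12.7 to 13.9 CPM and 1.98 to 4.26 CPM with Olig1 and Olig2 lower, and the endothelial and microglial sums were at most 12.7 and 10.1 CPM. The part of these markers in the result was not tested. Cntn5 stood at 62.0 to 116 CPM in wildtype and 25.6 to 104 CPM in knockout of this cluster and was not called without a block (adjusted p = 0.380, edgeR). It was called with the replicate block (log2 fold change -0.86, adjusted p = 0.0495, edgeR), where 4.03% of genes were, with the Xist level as a covariate (adjusted p = 0.0255) and without knockout replicate 1 (adjusted p = 0.0254).

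Neither cluster 5 nor cluster 7 had a gene called by edgeR without a block, where 1.77% of 10595 and 1.03% of 10548 genes were. At an unadjusted p under 0.05 there were 2 and 3 of the 10 genes, where 9.95% and 9.68% of all genes were, and DESeq2 called 1 and 0, where it called 1.89% and 1.12% of all genes. Cntn5 went in different directions in these clusters. In the intermediate progenitor-like cluster 5 it stood at 142, 119, 132 and 151 CPM in wildtype and at 121, 95.1, 83.6 and 89.8 CPM in knockout, overlapping at 1 sample (adjusted p = 0.0619 by edgeR, 0.0470 with the replicate block, where 1.79% of genes were called). In cluster 7 it stood at 438, 239, 286 and 252 CPM in wildtype and at 708, 560, 401 and 356 CPM in knockout (adjusted p = 0.0996 by edgeR). With the replicate block the cluster 7 difference was called, at a log2 fold change of 0.75 (adjusted p = 0.000293, edgeR), where 2.42% of genes were. The deep-layer marker sums did not overlap in either cluster. They were 2483 to 2702 CPM in wildtype and 3056 to 3972 CPM in knockout of cluster 5, and 2882 to 3167 CPM and 3234 to 3961 CPM in cluster 7. Other sums of cluster 5 did not overlap either. Lower in knockout were the upper-layer sum (1700 to 2059 CPM and 1509 to 1698 CPM) and the thalamic sum (490 to 543 CPM and 359 to 422 CPM). Higher were the subplate sum (68.6 to 78.2 CPM and 84.0 to 93.9 CPM) and the Cajal-Retzius sum (84.0 to 137 CPM and 143 to 184 CPM). The part of these markers in the results was not tested.

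Whether the genotype difference itself varied among clusters was tested in 1 model over all samples and clusters. It did for 7 of the 10 genes, where 9.12% of 12933 genes were called: Cntn3 (adjusted p = 3.92e-08, edgeR), Cntnap2 (6.97e-06), Cntn5 (0.000313), Cntn2 (0.00894), Cntn4 (0.0186), Cntnap5a (0.0188) and Cntnap4 (0.0277). The first 3 were called in all 11 alternatives. Cntn2 was lost without wildtype replicate 4 (adjusted p = 0.152). Cntn4, Cntnap4 and Cntnap5a were called in 6 of 11 alternatives each, and their adjusted p reached 0.336, 0.154 and 0.152 (edgeR or limma voom). Cntn6 did not pass (adjusted p = 0.429), and its log2 fold change was negative in all 7 clusters, from -0.38 in cluster 7 to -1.35 in cluster 6. Its wildtype means in clusters 1, 2, 5 and 7 were only 7.49 to 11.1 CPM. The sign in those clusters is therefore not read as a change of expression there.

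Each cluster was then set against the mean of the other 6 in the same model. The genotype difference of Cntn3 was higher by 1.25 ± 0.16 (log2, SE) in cluster 3 than in the other clusters (adjusted p = 1.49e-06, edgeR), where 0.936% of genes were called. In cluster 6 it differed by -1.21 ± 0.20 (adjusted p = 0.00105), where 0.232% of genes were called. That of Cntnap2 in cluster 2 differed by -1.14 ± 0.14 (adjusted p = 1.3e-07), that of Cntnap5a by -1.12 ± 0.23 (adjusted p = 0.000990) and that of Cntnap4 by 0.66 ± 0.17 (adjusted p = 0.0114), where 5.02% of genes were called (edgeR). The Cntnap4 value did not pass with limma voom or without knockout replicate 2 (adjusted p up to 0.103). For Cntn5 the difference in cluster 7 was higher by 1.24 ± 0.20 than elsewhere (adjusted p = 0.000337, edgeR), where 0.278% of genes were called. That of Cntn2 in cluster 3 was -0.75 ± 0.19 (adjusted p = 0.0371, edgeR), but among 8 leave-one-out fits it passed only without wildtype replicate 2 or knockout replicate 1, with adjusted p up to 0.311 in the other 6. Cntn3, Cntnap2, Cntnap5a and Cntn5 passed in these contrasts in all 11 alternatives.

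**Figure D5:**
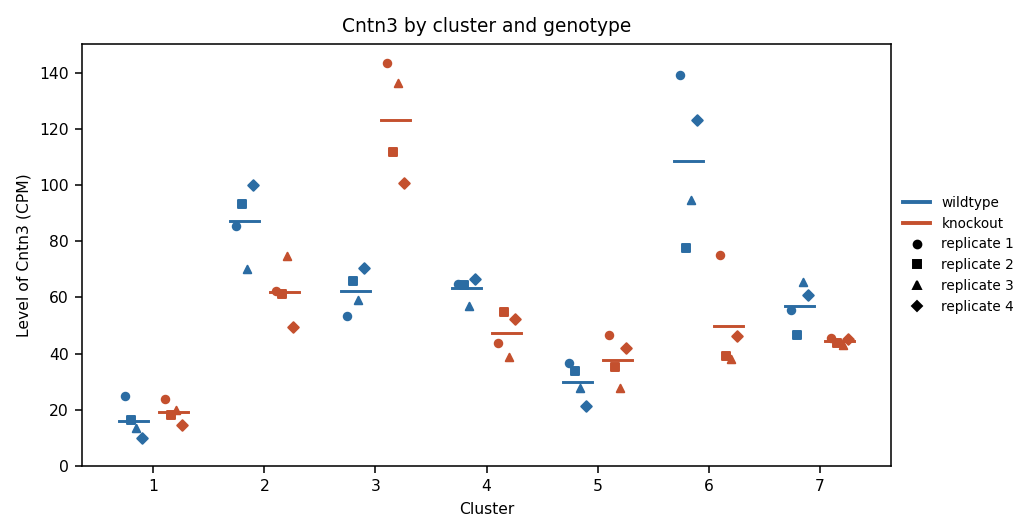
Level of Cntn3 in each cluster by sample, in CPM on a linear axis, with wildtype in blue, knockout in red, lines for means of 4 samples and a symbol for each replicate number. In cluster 3 the knockout samples (101 to 144 CPM) lie above the wildtype samples (53.5 to 70.4 CPM), and in cluster 6 they lie below.

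The other genes of the pathway were followed as a list of 28, of which Ptprg was not analysed here. Over all nuclei 3 of 27 tested were called, 1 higher and 2 lower, with a median log2 fold change of 0.00, where 5.26% of all genes were called. In clusters 1 to 7 the counts were 4 of 25, 5 of 24, 3 of 23, 4 of 23, 2 of 22, 0 of 23 and 1 of 22. Over all genes tested in those clusters the shares called were 4.84%, 9.11%, 3.36%, 4.29%, 1.77%, 0.779% and 1.03%. The list was chosen with earlier results of these data known and holds no more than 5 calls in any comparison. Nothing particular to it is read from these counts.

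The remaining family genes were Cntnap1, Cntnap3 and Cntnap5c. Cntnap5c, the close relative of Cntnap5a, stood at 47.5, 43.8, 26.2 and 41.8 CPM over all wildtype nuclei and at 23.3, 11.8, 11.9 and 18.6 CPM in knockout. The groups did not overlap (log2 fold change -1.28 ± 0.23 SE, adjusted p = 0.0132, edgeR), and the call was lost without knockout replicate 3 (adjusted p = 0.0513). It also fell in cluster 2, by 1.72 on the log2 scale (adjusted p = 0.0121; 0.0503 without knockout replicate 3), and in cluster 3, where the log2 fold change was -0.98 (adjusted p = 0.00176, edgeR). In cluster 2 wildtype replicate 3, at 27.4 CPM, lay apart from the other wildtype samples (108 to 153 CPM) and inside the knockout range of 17.9 to 41.1 CPM. The transcripts of Cntnap5c and Cntnap5a matched at 90.23% identity over 3930 bases. Cntnap1 and Cntnap3 were under 2 CPM over all nuclei in each sample.

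Of the L1-type adhesion molecules, which bind contactins on neighbouring axons, Nrcam fell and Nfasc rose in cluster 2. Nrcam went from a mean of 452 to 306 CPM (log2 fold change -0.56, adjusted p = 0.000926, edgeR) and Nfasc from 444 to 570 CPM (0.36, adjusted p = 0.00691). Chl1 fell in cluster 7, from 561, 544, 582 and 591 CPM to 304, 266, 286 and 430 CPM (log2 fold change -0.80, adjusted p = 0.00161, edgeR). It was also called in cluster 5 (-0.70, adjusted p = 0.0315), a call lost without any single wildtype sample or knockout replicate 2 (adjusted p up to 0.113).

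Ptprz1, the receptor phosphatase that binds Cntn1, moved in opposite directions in 2 clusters. It fell in the apical progenitor-like cluster 4, from 1630, 1529, 1554 and 1686 CPM to 871, 896, 884 and 993 CPM (log2 fold change -0.79, adjusted p = 4.44e-05, edgeR). In cluster 3 it rose from a mean of 724 to 928 CPM (0.39, adjusted p = 0.0115), a call lost without knockout replicate 3 (adjusted p = 0.0520). Tnc, a matrix protein of progenitors and a ligand of contactins, fell in cluster 4 from 161, 151, 171 and 140 CPM to 52.5, 55.8, 67.8 and 88.9 CPM (log2 fold change -1.23, adjusted p = 0.000475, edgeR). Its calls over all nuclei (-0.84, adjusted p = 0.0258) and in cluster 1 (-1.09, adjusted p = 0.0399) were lost without knockout replicate 2 or 3, and in cluster 1 also without every other sample but wildtype replicate 3 (adjusted p up to 0.135).

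Among partners in the cytoplasm and at the synapse, Epb41l3, the adaptor that binds Cntnap2, fell in cluster 2 (log2 fold change -0.35, adjusted p = 0.00381, edgeR) and in cluster 1 (-0.33, adjusted p = 0.0137). The cluster 1 call was lost without knockout replicate 2 or 3 (adjusted p up to 0.0580). Lgi1, a secreted synaptic protein, rose in cluster 2 from a mean of 17.97 to 29.7 CPM (0.71, adjusted p = 0.00615, edgeR). None of the amyloid precursor family genes App, Aplp1 and Aplp2 passed in the 8 comparisons without a block, and App was called in cluster 1 with the replicate block (log2 fold change 0.19, adjusted p = 0.0380, edgeR). The block also added calls for Nfasc over all nuclei and in cluster 1, Chl1 in clusters 2 and 6, Ptprz1 in cluster 7, Tnr and Cntnap5c in cluster 6 and Adam23 in cluster 5, with adjusted p from 0.0171 to 0.0480 (edgeR).

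The transcription factors Foxp1 and Foxp2 are reported to act on Cntnap2. Foxp1 rose by 0.43 (log2) over all nuclei, and by 0.50 to 0.64 in each of clusters 1, 3, 4 and 5 (adjusted p of at most 0.00531, edgeR). Foxp2 rose in cluster 1, from a mean of 91.3 to 154 CPM (0.79, adjusted p = 2.69e-05, edgeR), and in cluster 4 (0.36, adjusted p = 0.00705). Without a block, neither factor was called in cluster 2, where Cntnap2 fell. Cntnap2 itself was not called in clusters 1, 3, 4 or 5, with log2 fold changes of -0.08, 0.01, -0.28 and 0.01 (edgeR). A link between these genes was not tested.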

How the data were processed

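Single-nucleus libraries of 8 samples were used, 4 per genotype. Per the submitters' processing notes the reads were handled with kallisto and bustools on mm10, with no versions, and whether intronic reads were counted is not given in the sources used here. The deposited values are UMI counts per gene and nucleus, whole numbers that the authors had not normalised. The deposited totals per nucleus are counts 0.653% to 0.958% above the sums of the deposited genes. The authors' cluster numbers were used as they stand and all nuclei were kept, each with at least 1496 UMIs. The deposited hybrid doublet scores did not exceed 0.499954, and no doublet caller was run. The deposited gene table also gives another value, the number of cells with a gene, which was not used in results. All libraries carry 1 date, so no batch could be compared.

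Each sample's UMIs were added up per gene, once over its nuclei and once per cluster (at least 314 nuclei of a cluster in each sample). Knockout was compared with wildtype in edgeR 4.0.16 (R 4.3.3) by glmQLFit and glmQLFTest after filterByExpr and TMM scaling; the design held genotype alone, with Benjamini-Hochberg adjustment over all genes of a fit at 0.05. SEs come from the quasi-likelihood F statistic. Genotype by cluster was tested in 1 edgeR model with the sample as a fixed term. Alternatives were DESeq2 1.42.0, limma 3.58.1 (voom), RLE size factors, no filter, a replicate block, Xist level as a covariate and each sample left out. The sums without cluster 6 were added after seeing the data. A marker gene, and an alternative sum for cluster 2 that used it, are not reported here and enter no sum or count. Tested on simulated counts with 200 genes changed by a log2 of 1, the fit recovered 92% over all nuclei (13927 genes) and, for clusters 1 to 7, 90.5%, 85.5%, 92%, 86%, 89%, 77.5% and 84% (11664, 11538, 11890, 11935, 10595, 10522 and 10548 genes). The genotype by cluster model, with the change placed in cluster 1 only, recovered 68.5% (12933 genes). Smaller changes, and changes in other clusters for that model, were not simulated, so these shares do not describe them. Of the calls, 4.66% were false over all nuclei, 7.65%, 7.07%, 7.07%, 7.03%, 5.32%, 5.49% and 2.89% in clusters 1 to 7, and 8.05% in the genotype by cluster model, against a nominal 5%.

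Replicate numbers come from the labels. The labels do not say that equal numbers mark paired samples. Across genes, samples of the same number deviated from their groups with correlations of 0.384, 0.184, 0.183 and 0.184, each over 0.1. Another 3 pairs, of different numbers, were also over 0.1 (0.276, 0.170 and 0.113), and 0.276 exceeds the same-number values of 0.183 and 0.184. Pairing by number is therefore not established. The numbers entered as a block in an alternative fit only, and calls that need the block rest on that pairing. Genes, partner lists and tests were chosen with earlier results of these data known. All 10 genes are named in each fit, partner genes where called, and the 3 genes most like each by cluster means. Transcripts were compared with blastn 2.17.0, and sequences were taken from RefSeq (GRCm38.p6). Shares of nuclei are given per sample or as means over the 4 samples of a group, and were not tested.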

Additional observations from a re-analysis of the deposited data

Results flagged for a closer look

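The genotype difference varied among clusters for 7 of the 10 genes in the edgeR model of genotype by cluster, which is why they are listed: Cntn2 (adjusted p = 0.00894), Cntn3 (3.92e-08), Cntn4 (0.0186), Cntn5 (0.000313), Cntnap2 (6.97e-06), Cntnap4 (0.0277) and Cntnap5a (0.0188).

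A single sample stood apart from the other 3 of its group in 8 of the 160 groups of 4 levels, and chance puts about 1 in 20 such groups past the limit used. Knockout replicate 1 was the high sample in 5 of them: Cntn4 in cluster 3 (54.3 CPM against 22.6 to 27.3 CPM), Cntn5 in cluster 3 (960 against 755 to 779 CPM), Cntn5 in cluster 6 (2039 against 1148 to 1258 CPM), Cntnap2 in cluster 3 (260 against 175 to 187 CPM) and Cntnap5a over all nuclei (83.1 against 54.2 to 58.3 CPM). Wildtype replicate 1 was low for Cntn2 over all nuclei (54.4 against 76.3 to 80.3 CPM) and high for Cntn6 in cluster 1 (10.98 against 5.94 to 6.59 CPM). Knockout replicate 3 was low for Cntnap5a in cluster 2 (12.9 against 20.3 to 21.1 CPM).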

How the results depend on the processing

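With the replicate block, which treats same-numbered samples as paired, edgeR called 5 of the 10 genes over all nuclei in place of 2, while calls over all genes went from 732 to 1344. Clusters 1, 4, 5, 6 and 7 then gave 3, 2, 1, 3 and 1 called genes in place of 1, 1, 0, 1 and 0, with 800, 481, 190, 253 and 255 calls over all genes in place of 564, 512, 188, 82 and 109. The block moved the counts in clusters 2 and 3 by less than 1.5 times and lost no call. DESeq2 called 2 in cluster 1 and 1 in cluster 5, and the fit with the Xist level 2 in cluster 4 and 1 in cluster 5. Sums without the nuclei of cluster 6 gave 1 gene over all nuclei. Leaving out 1 sample at a time gave 0 to 4 called genes over all nuclei and 4 to 8 for genotype by cluster. By cluster the counts were 5 to 7 (cluster 2), 1 to 3 (clusters 3 and 4), 1 to 2 (cluster 1), 0 to 2 (cluster 6) and 0 to 1 (clusters 5 and 7). The lowest counts came without knockout replicate 2 or 3 over all nuclei and without wildtype replicate 2 or 4 for genotype by cluster. Of the 15 called fold changes, 8 stayed called in every alternative run for them. Their 197 alternative values held 31 that no longer passed and 0 that changed sign, and the cause of these losses was not tested.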
